A study of Mus musculus with 4 samples.

Results

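The endothelial identity genes examined here are 10 genes whose products mark or specify the cells that line blood vessels: *Pecam1*, *Cdh5*, *Vwf*, *Tek*, *Kdr*, *Flt1*, *Nos3*, *Erg*, *Sox17* and *Sox18*. They are 10 of 21911 protein-coding genes in the annotation. They were named by symbol and not by a measured value, although earlier results of these data were known. Their loci, each the gene body with 20 kb on both sides, held 23 of the 21176 peaks of the female control library, 3 of 1236 in the male control, 1 of 504 in the female VEDS and 58 of 41444 in the male VEDS. Nuclei of whole aorta were profiled by ATAC-seq, in which the transposase Tn5 cuts open DNA and peaks mark places with many cuts. The controls were Col3a1+/+ and the VEDS mice were heterozygous for the glycine substitution (Col3a1G938D/+), a model of vascular Ehlers-Danlos syndrome. All were 60 days old (P60), had no treatment, and gave 1 female and 1 male library per genotype, each from 2 pooled mice. The libraries were made with a single-cell ATAC kit but read as pseudobulk, so that the peaks come from all cell types of the vessel wall together.

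A single sheet of endothelial cells lines the aorta, while smooth muscle cells fill most of the wall. Endothelial identity is held by transcription factors of the ETS family, such as ERG and FLI1, together with SOXF factors, of which SOX17 and SOX18 are examples. ETS factors bind DNA at a GGAA core and act at promoters and intronic enhancers of endothelial genes. In a peak list of whole tissue, fewer cells of a type and less open DNA per cell cannot be told apart.

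The sequences below were read from GRCm38 (mm10) and are printed 5′ to 3′ in lower case. In the first set, capitals mark an ETS match, defined as AGGAAG or CGGAAG on either strand, so that CTTCCT and CTTCCG are the same match read from the other strand. The set holds the 3 distal regions (more than 3 kb from any annotated transcription start site, TSS) found in both long lists (female control and male VEDS) with the most ETS matches summed over the 300-bp windows around the summits of both, ties going to the higher rank. The windows are those of the male VEDS peaks, on the plus strand.
*Erg* intron 10, chr16:95365241-95365540: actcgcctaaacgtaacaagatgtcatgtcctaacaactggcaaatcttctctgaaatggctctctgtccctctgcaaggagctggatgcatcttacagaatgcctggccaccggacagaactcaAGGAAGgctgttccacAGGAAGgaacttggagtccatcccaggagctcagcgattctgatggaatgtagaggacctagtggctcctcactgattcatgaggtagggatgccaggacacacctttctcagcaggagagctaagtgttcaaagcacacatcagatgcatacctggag
*Pecam1* intron upstream of the reference TSS, chr11:106722785-106723084: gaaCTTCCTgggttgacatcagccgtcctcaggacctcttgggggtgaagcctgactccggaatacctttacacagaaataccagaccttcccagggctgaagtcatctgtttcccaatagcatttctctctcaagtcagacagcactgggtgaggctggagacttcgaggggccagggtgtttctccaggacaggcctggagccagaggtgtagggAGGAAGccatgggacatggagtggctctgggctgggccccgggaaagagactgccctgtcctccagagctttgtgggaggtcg
*Pecam1* intron 15, chr11:106658038-106658337: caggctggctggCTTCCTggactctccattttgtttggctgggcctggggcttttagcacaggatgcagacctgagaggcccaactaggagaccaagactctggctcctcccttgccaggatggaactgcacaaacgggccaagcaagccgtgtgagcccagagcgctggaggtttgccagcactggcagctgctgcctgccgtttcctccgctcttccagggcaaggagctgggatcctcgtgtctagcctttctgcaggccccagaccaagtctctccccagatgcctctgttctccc

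These windows held 2, 2 and 1 matches, and none of their summits lay in an annotated exon of *Erg* or *Pecam1*. A further 2 regions are shown for other reasons. The first is the distal member region with the highest rank in the male VEDS list, in intron 2 of *Erg*, where capitals mark the single AP-1 match (TGAGTCA or TGACTCA). The second is the only member region present in all 4 lists, 12849 bp upstream of the reference TSS of *Pecam1* in the male VEDS list, where capitals mark GATA matches (AGATAA on either strand).
*Erg* intron 2, chr16:95440409-95440708: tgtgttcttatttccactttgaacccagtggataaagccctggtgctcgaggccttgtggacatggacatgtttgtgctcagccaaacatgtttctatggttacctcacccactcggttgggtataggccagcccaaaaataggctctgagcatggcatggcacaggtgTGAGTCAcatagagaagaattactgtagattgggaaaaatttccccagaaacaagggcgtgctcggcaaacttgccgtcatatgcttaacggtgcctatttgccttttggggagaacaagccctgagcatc
*Pecam1* upstream region, chr11:106728348-106728647: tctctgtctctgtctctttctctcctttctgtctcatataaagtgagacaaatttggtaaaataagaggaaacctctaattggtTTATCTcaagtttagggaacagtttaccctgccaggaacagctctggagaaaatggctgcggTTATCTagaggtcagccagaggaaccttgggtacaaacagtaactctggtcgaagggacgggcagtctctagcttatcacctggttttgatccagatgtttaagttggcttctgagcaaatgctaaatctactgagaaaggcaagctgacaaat

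Both windows held 0 ETS matches of the kind defined above. Of the 10 genes, 4 (*Tek*, *Kdr*, *Flt1* and *Erg*) had an entry among the promoter sequences from RefSeq (GRCm38.p6). The 250 bases before the TSS are shown for the 3 whose entry overlapped a peak of the male VEDS list, each on the strand of the gene, with ETS matches in capitals.
*Tek*, chr4:94739039-94739288, plus strand: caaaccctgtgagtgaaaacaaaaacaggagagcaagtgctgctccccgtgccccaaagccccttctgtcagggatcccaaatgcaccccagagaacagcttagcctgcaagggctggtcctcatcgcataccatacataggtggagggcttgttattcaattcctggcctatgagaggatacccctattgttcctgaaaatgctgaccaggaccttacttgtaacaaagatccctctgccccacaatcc
*Kdr*, chr5:75978456-75978705, minus strand: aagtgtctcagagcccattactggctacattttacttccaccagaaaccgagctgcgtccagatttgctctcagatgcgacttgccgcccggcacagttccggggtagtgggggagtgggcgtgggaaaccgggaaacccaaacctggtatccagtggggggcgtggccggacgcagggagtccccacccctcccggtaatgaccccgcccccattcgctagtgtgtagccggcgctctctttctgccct
*Flt1*, chr5:147726012-147726261, minus strand: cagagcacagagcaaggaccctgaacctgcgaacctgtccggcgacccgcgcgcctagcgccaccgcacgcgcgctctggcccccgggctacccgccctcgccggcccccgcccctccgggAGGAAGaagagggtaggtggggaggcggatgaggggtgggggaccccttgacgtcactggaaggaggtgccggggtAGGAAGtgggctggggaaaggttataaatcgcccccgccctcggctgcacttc

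The *Flt1* stretch held 2 ETS matches, while those of *Tek* and *Kdr* held 0. Among 32851 RefSeq promoter stretches of the same length, 39.2% held at least 1 match. The absence of a match says only that these letters are not in this stretch. The stretches also differed in base composition. GC content was 51.2% in *Tek*, 61.6% in *Kdr* and 70.4% in *Flt1*, with 2, 16 and 23 CpG sites respectively.

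The 4 lists differed widely in length (504 to 41444 peaks) and in depth, with a median pileup at the summit of 14 in the female control, 7 in the male control, 6 in the female VEDS and 22 in the male VEDS library. Pileup is the number of fragments or cut sites that the authors' MACS2 run counted at a summit, recovered here from the deposited fold enrichment and −log10 p. The 2 long lists (female control and male VEDS) differ in genotype, sex and depth at once, and these cannot be told apart. In the male control list, 68.8% of peaks had more than 50% of their bases masked as repeats, against 3.9% to 27.4% in the other lists. With 2 libraries per genotype, an exact permutation test cannot give a two-sided p below 0.333, so no test between genotypes was run and a region without a peak was not read as closed.

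Promoter peaks were rarer at the endothelial identity genes than over all genes in the female control list, and about as frequent in the male VEDS list. A promoter peak, lying within 3 kb of any annotated TSS of the gene, was found for 1 of the 10 genes in the female control list, where 47.4% of all protein-coding genes had one. In the male control and female VEDS lists it was found for 0 of 10, where 1.56% and 1.49% of all genes had one. In the male VEDS list it was found for 6 of 10 (*Erg*, *Flt1*, *Kdr*, *Pecam1*, *Tek* and *Vwf*), beside 58.5% of all genes. With the male VEDS list cut to the length of the female control list by −log10 q, 3 of 10 remained (*Erg*, *Pecam1* and *Vwf*), beside 49.9% of all genes. The promoter peaks of *Pecam1* and *Vwf* lay near internal starts of noncoding transcripts. Counting starts of protein-coding transcripts alone left 0 of 10 in the female control list, beside 46.2% of all genes, and 4 of 10 in the male VEDS list (*Erg*, *Flt1*, *Kdr* and *Tek*), beside 57.1%.

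Peaks were also counted anywhere in the locus, which contains the promoter intervals by definition. At least 1 peak lay in the locus of 6 of 10 genes in the female control list (64.1% of all genes), 3 of 10 in the male control (4.61%), 1 of 10 in the female VEDS (3.19%) and 9 of 10 in the male VEDS (73.5%). Loci of the 10 genes were long, with a median of 111022 bp against 57433 bp over all genes, so that peaks are also given per 100 kb. The median was 0.767 peaks per 100 kb in the female control list and 2.89 in the male VEDS list, where the medians over all genes were 1.53 and 2.42. Pooled over the 10 loci, the density was 1.8 and 4.53 peaks per 100 kb against 1.66 and 2.94 pooled in the same way over all genes, so that in the female control list the median and the pooled density of the members lay on opposite sides of those over all genes. *Erg* and *Pecam1* held most of the peaks. Without these 2 loci, 7 peaks remained in the female control list and 25 in the male VEDS list, counts chosen after the values were seen. Per 100 kb of the remaining loci, both counts were below the pooled density over all genes, only slightly so in the male VEDS list.

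**Figure D1:**
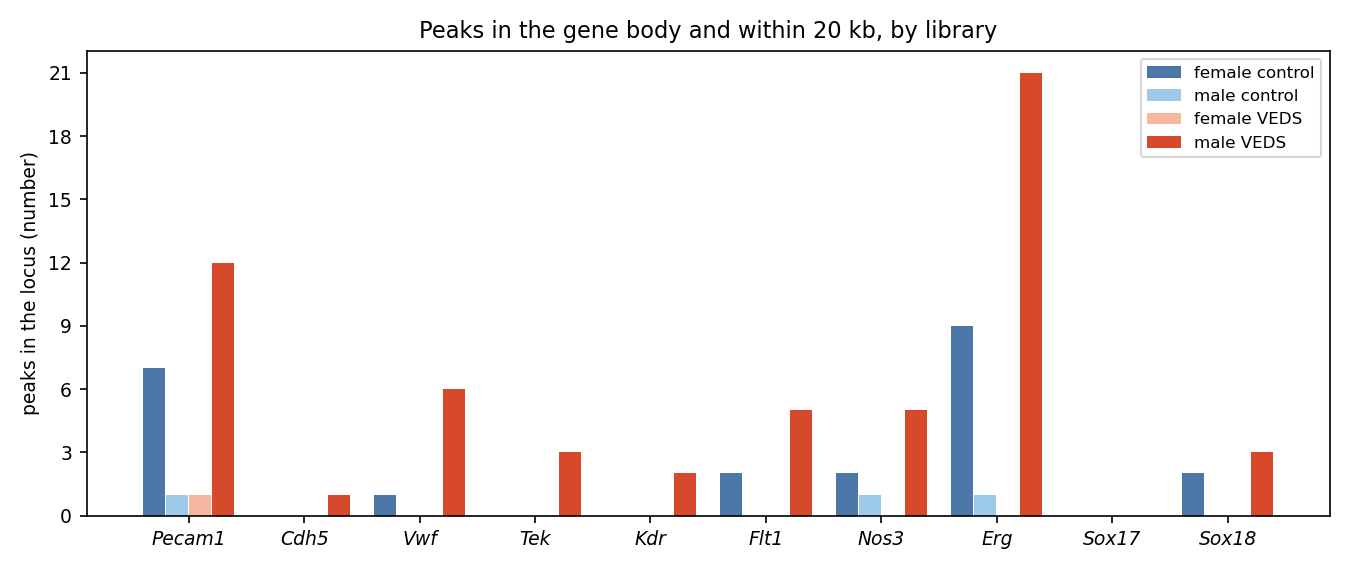
Number of peaks (y axis) in the gene body and within 20 kb of each of the 10 genes (x axis), with 1 bar per library. *Erg* has 21 peaks in the male VEDS list and 9 in the female control list, *Pecam1* has 12 and 7, and *Sox17* has none in any list.

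**Figure D2:**
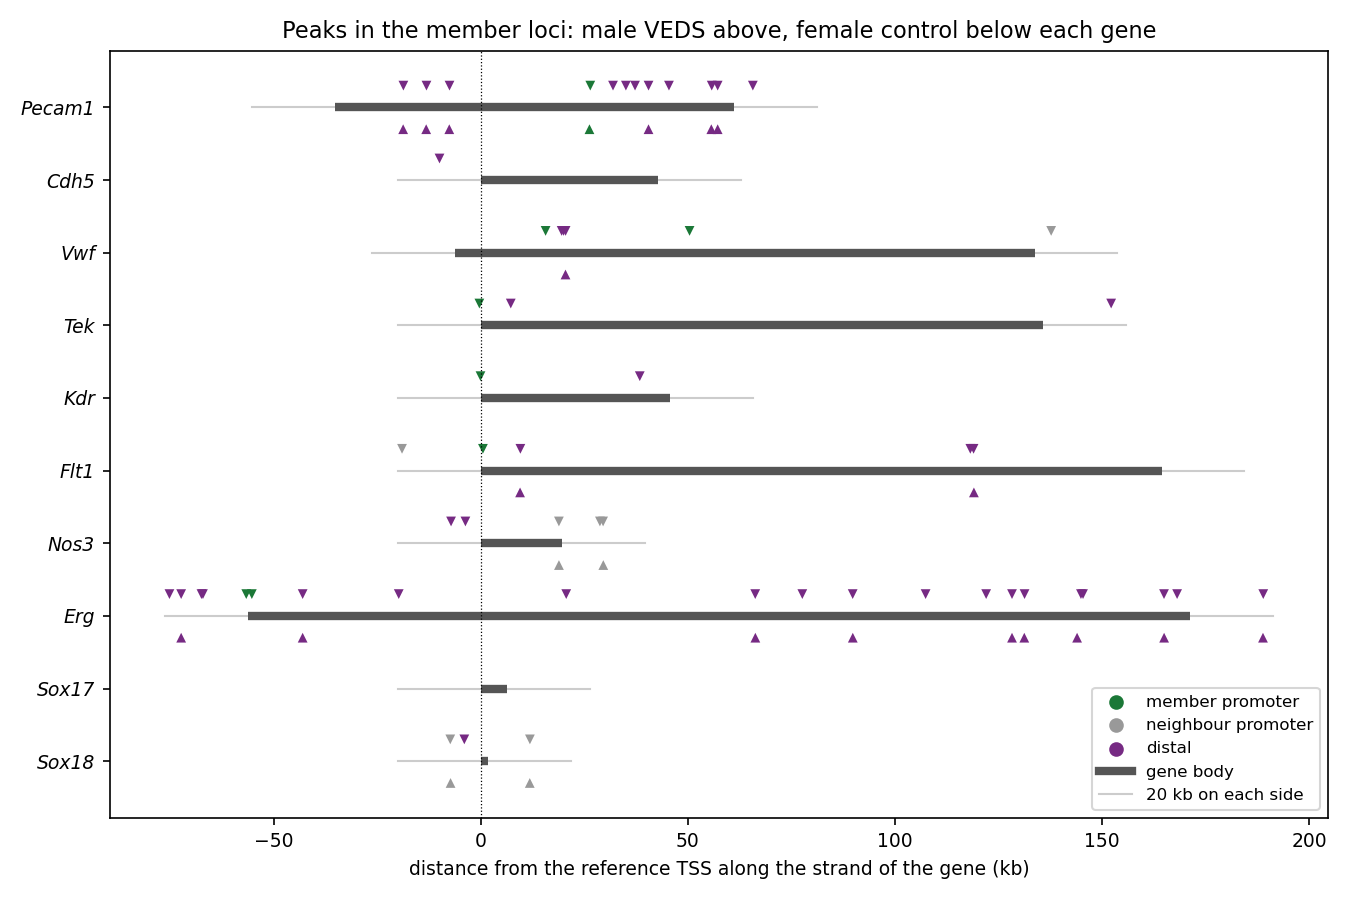
Position of each peak summit in the 2 long lists, as distance in kb from the reference TSS along the strand of the gene (x axis), with 1 row per gene. Triangles above the gene are male VEDS peaks and those below are female control peaks, colored by class. Most peaks lie away from the reference TSS, and those at the reference TSS of *Tek*, *Kdr* and *Flt1* appear in the male VEDS row alone.

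Most member peaks were distal. In the female control list 18 of 23 (78.3%) were distal, 1 was a promoter peak of a member and 4 lay within 3 kb of the TSS of a neighboring gene. In the male VEDS list 43 of 58 (74.1%) were distal, 8 were member promoter peaks and 7 belonged to neighbors. Over all peaks, 43.4% of the female control list and 53.4% of the male VEDS list were distal. *Erg* and *Pecam1* held most of the distal member peaks in both lists. At the other members, the distal share was close to that over all peaks of the same list. These loci were set apart after the values were seen. Introns of the members held the summits of 17 of 23 and 35 of 58 peaks. By −log10 q, 3 of 23 (13.0%) and 6 of 58 (10.3%) were in the top 20% of their list, and 13 of 23 (56.5%) and 33 of 58 (56.9%) ranked below its middle. The highest ranked were in the top 4.17% (*Erg* intron 2) and 5.28% (the *Nos3* locus) of the male VEDS list. Their median pileup was 12 in the female control list and 21.5 in the male VEDS list, beside 14 and 22 over all peaks.

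Among genes of the cell surface, *Pecam1* (chr11:106654217-106750628, minus strand), which encodes the adhesion molecule CD31 at endothelial junctions, was the one gene with a peak in every list. It had 7 peaks in the female control list, 1 in the male control, 1 in the female VEDS and 12 in the male VEDS. Of the 7 female control peaks, all overlapped a male VEDS peak. No list held a peak within 3 kb of its reference TSS. The nearest was 7466 bp away in the male VEDS list, the region at chr11:106722860-106723113 whose window is printed above. The peaks counted as promoter peaks of *Pecam1* lay 2180 bp (female control) and 2107 bp (male VEDS) from the start of an internal retained-intron transcript and had pileups of 7 and 28.

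The *Pecam1* region at chr11:106728243-106729040 had a pileup of 30 (95% exact Poisson interval 20.2 to 42.8) in the female control library, 8 (3.45 to 15.8) in the male control, 8 (3.45 to 15.8) in the female VEDS and 53 (39.7 to 69.3) in the male VEDS. It was the only 1 of 59 member regions in all 4 lists (1.69%), where 114 of 42961 regions of the whole series (0.265%) were. Its rank placed it in the top 11.8% of the female control list, 63.8% of the male control, 37.9% of the female VEDS and 16.3% of the male VEDS. The region lay in an intron of the *Pecam1* transcript with the most upstream TSS. Its window held 2 GATA matches in each list, as printed above. GATA2 is the member of the GATA family best known from endothelium. A GATA match was found in 12.1% of all distal windows in each long list. Over windows of every class the share was 7.78% (female control) and 9.18% (male VEDS).

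A pair of peaks in intron 15 of *Pecam1* was also shared by the long lists. The stronger, at chr11:106657930-106658441, had a pileup of 30 (20.2 to 42.8) in the female control library and 64 (49.3 to 81.7) in the male VEDS. The other, at chr11:106659520-106660262, had 21 and 38. The printed window of the stronger region held 1 ETS match at its edge.

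*Cdh5* (chr8:104101625-104144511, plus strand), which encodes VE-cadherin of the endothelial adherens junction, had a single peak, in the male VEDS list. It lay 9962 bp upstream of the gene with a pileup of 9 (4.12 to 17.1) and ranked 37883 of 41444. Its window held 1 ETS, 1 SOX and 1 GATA match. The nearest peak in the female control list was 72736 bp from the gene.

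*Vwf* (chr6:125546774-125686679, plus strand), which encodes the clotting glycoprotein that endothelium stores and secretes, had 1 peak in the female control list, 0 in both short lists and 6 in the male VEDS list. The shared one, in intron 6 at chr6:125573291-125573509, had a pileup of 15 (8.4 to 24.7) in the female control library and 36 (25.2 to 49.8) in the male VEDS, and its window held an AP-1 match and no ETS match. Its other male VEDS peaks included 1 that lay 25 bp from an internal noncoding start, with a pileup of 22 and 2 ETS matches. No peak lay within 3 kb of its reference TSS.

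The receptor genes had their promoter peaks in the male VEDS list alone. *Tek* (chr4:94739289-94874976, plus strand), which encodes the angiopoietin receptor TIE2, had 0, 0, 0 and 3 peaks in the female control, male control, female VEDS and male VEDS lists. Its promoter peak at chr4:94738855-94739090 ended 199 bp before the nearest TSS, with a pileup of 11 (5.49 to 19.7). The others had a pileup of 8, one in intron 1 with 2 ETS matches and one downstream with 3 ETS matches, in which 100% of bases were masked as repeats.

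*Kdr* (chr5:75932827-75978458, minus strand), which encodes the main VEGF receptor VEGFR2, had 0, 0, 0 and 2 peaks in the same order. Its promoter peak at chr5:75978391-75978601 spanned the TSS with a pileup of 13 (6.92 to 22.2). A second, in intron 27, had 9. Neither window held an ETS match.

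*Flt1* (chr5:147561604-147726011, minus strand), which encodes VEGFR1, had 2, 0, 0 and 5 peaks. Its promoter peak at chr5:147725353-147726023 spanned the TSS with a pileup of 15 (8.4 to 24.7), and its summit lay 529 bp inside the gene. That summit window held no ETS match, although the 250 bases before the TSS held 2. Both female control peaks recurred in the male VEDS list. The peak in intron 1 at chr5:147716384-147716824 had pileups of 11 and 30, and the one in intron 15 at chr5:147606858-147607108 had 14 and 29. The intron 1 window held 2 ETS matches at the male VEDS summit and 0 at the female control summit.

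*Nos3* (chr5:24364810-24384474, plus strand), which encodes endothelial nitric oxide synthase, had 2, 1, 0 and 5 peaks, none within 3 kb of its TSS. Its strongest region, at chr5:24394222-24394841, lay at the promoters of the neighbors *Abcb8* and *Atg9b*. The pileup there was 18 (10.7 to 28.4) in the female control library, 9 (4.12 to 17.1) in the male control and 73 (57.2 to 91.8) in the male VEDS, with no peak in the female VEDS list. A region at the last part of the gene lay at the start of the neighbor *Gm15587* and had pileups of 11 and 30 in the long lists. The 2 peaks upstream of *Nos3* that were nearest to its TSS, at distances of 3651 and 7071 bp, appeared in the male VEDS list alone, with pileups of 13 and 19, and held 1 and 2 ETS matches.

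Among the transcription factors, *Erg* (chr16:95359169-95586593, minus strand) held the most peaks, 9 in the female control list, 1 in the male control, 0 in the female VEDS and 21 in the male VEDS. ERG is itself an ETS factor that keeps endothelial genes active. The strongest region, in intron 2 at chr16:95440371-95440715 and printed above, had a pileup of 26 (17.0 to 38.1) in the female control library and 74 (58.1 to 92.9) in the male VEDS. It ranked in the top 13.5% and 4.17% of these lists. A region in an intron of the transcript with the most upstream TSS, at chr16:95573164-95573722, had pileups of 18 and 62, and a region downstream of the gene at chr16:95341132-95341770 had 23 and 50. None of the 300-bp summit windows of these 3 regions held an ETS match. The windows of the first and second each held an AP-1 match.

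The promoter peaks of *Erg* were at its most upstream TSS, in the male VEDS list alone. They lay 620 bp inside the gene with a pileup of 33 (22.7 to 46.3) and 355 bp outside it with a pileup of 16 (9.15 to 26.0). The peak of the male control list, in intron 2, had a pileup of 6 (2.2 to 13.1) and overlapped a male VEDS peak with a pileup of 13. Both had 100% of their bases masked as repeats.

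*Sox17* (chr1:4490931-4497354, minus strand), which encodes an arterial SOXF factor, had no peak in any list. The nearest peaks to the gene lay at 46849 bp in the male VEDS list, 62340 bp in the male control and 74405 bp in the female control. *Sox18* (chr2:181669836-181671640, minus strand), its relative in early vessels and lymphatics, had 2, 0, 0 and 3 peaks and no promoter peak. Of the 3 male VEDS peaks, 2 lay at starts of neighbors (*Tcea2*, and the pair *Gm25879* and *Gm29797*) and were shared with the female control list, with pileups of 36 and 20 against 10 and 7. The remaining one lay 3914 bp upstream of *Sox18* in the male VEDS list alone, with a pileup of 27 (17.8 to 39.3) and 2 ETS matches.

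The female control peaks recurred almost entirely in the male VEDS list. Of the 23 member peaks, 22 (95.7%, 95% Wilson interval 79.0 to 99.2%) overlapped a male VEDS peak, beside 95% of all female control peaks. The exception was an *Erg* intron 4 peak with a pileup of 7. In the other direction, 22 of 58 (37.9%, 26.6 to 50.8%) overlapped a female control peak, beside 47.6% of all male VEDS peaks. The share differed by class, being 37.2% over all distal and 59.5% over all promoter peaks of the male VEDS list. Of the distal member peaks, 17 of 43 were shared, close to the distal share over the list. The share also followed rank. Among male VEDS peaks ranked within 21176, the length of the female control list, 19 of 25 (76.0%) were shared, beside 77.6% over all peaks of that rank, and beyond it 3 of 33 (9.09%), beside 16.3%.

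At the 22 shared peaks the pileup was higher in the male VEDS library in 22 of 22, by a median ratio of 2.56 (range 1.77 to 4.06). Over 20070 shared peaks of the whole lists it was higher in 19976, by a median ratio of 2.47. At smooth muscle genes it was higher in 52 of 52, by a median ratio of 2.61. The pileups are not scaled for depth, so the ratio of the members is described only beside these.

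**Figure D3:**
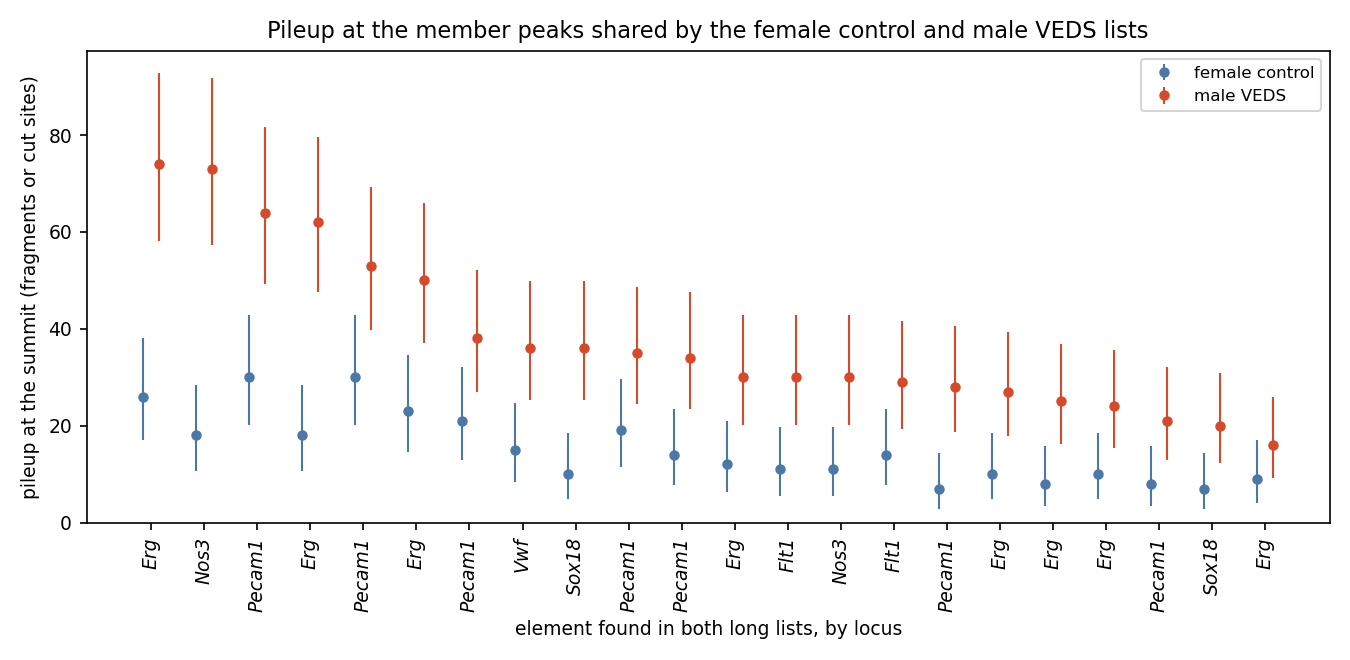
Pileup at the summit (y axis, fragments or cut sites) for the 22 member regions found in both long lists, ordered by the male VEDS value and named by locus (x axis). Points are single libraries and bars are 95% exact Poisson intervals, which cover counting error only. The male VEDS value is higher at every region, beside 19976 of 20070 shared peaks of the whole lists. The highest pair is the *Erg* intron 2 region with 26 and 74.

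The share of member windows with an ETS match was not distinguishable from that over all windows at these numbers in either long list. At least 1 match was found in 7 of 23 female control windows (30.4%, 15.6 to 50.9%), beside 45.2% of all windows of that list, and in 26 of 58 male VEDS windows (44.8%, 32.7 to 57.5%), beside 43.1%. Both intervals contain the share over all windows. In distal windows the counts were 5 of 18 (27.8%, 12.5 to 50.9%) beside 37.0%, and 21 of 43 (48.8%, 34.6 to 63.2%) beside 38.4%. In promoter windows of the male VEDS list, neighbors included, the count was 5 of 15 (33.3%) beside 48.5%. The GGAA core alone was in 23 of 23 and 57 of 58 windows, beside 95.3% of all windows in both lists, and so separates nothing at this length. A stricter match (CAGGAAGT or CCGGAAGT) was in 1 of 23 and 1 of 58, beside 7.35% and 6.0%.

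ETS matches in the male VEDS list were also counted by rank, a split made after the values at equal list length were seen. Of member peaks ranked within 21176, 5 of 25 windows (20%, 8.86 to 39.1%) held a match, beside 46.2% of all windows of that rank. Of those ranked lower, 21 of 33 (63.6%, 46.6 to 77.8%) did, beside 40.0%. In distal windows alone the counts were 4 of 19 (21.1%, 8.51 to 43.3%) beside 37.8%, and 17 of 24 (70.8%, 50.8 to 85.1%) beside 38.8%. The size of the gap between ranks depended on the window and the loci. Over all classes the counts were 11 of 25 (44.0%, beside 55.0%) and 17 of 33 (51.5%, beside 31.8%) with the whole peak in place of the 300-bp window. In 100-bp windows they were 2 of 25 (8.0%, beside 20.9%) and 10 of 33 (30.3%, beside 15.9%). Without *Erg* and *Pecam1* they were 3 of 9 (33.3%, beside 46.2%) and 9 of 16 (56.2%, beside 40.0%). Without these loci, the distal counts were 2 of 5 (beside 37.8%) and 5 of 8 (beside 38.8%). With all 10 loci, the distal counts with the whole peak were 8 of 19 (42.1%, beside 44.2%) and 15 of 24 (62.5%, beside 30.5%). In 100-bp windows they were 1 of 19 (5.26%, beside 13.8%) and 8 of 24 (33.3%, beside 15.1%). Median GC content of the distal member windows was 51.0% in the higher ranks and 50.3% in the lower, beside 50.3% and 49.3% over all distal windows. Windows of 1 locus share their surroundings and are not replicates, so no test was made.

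**Figure D4:**
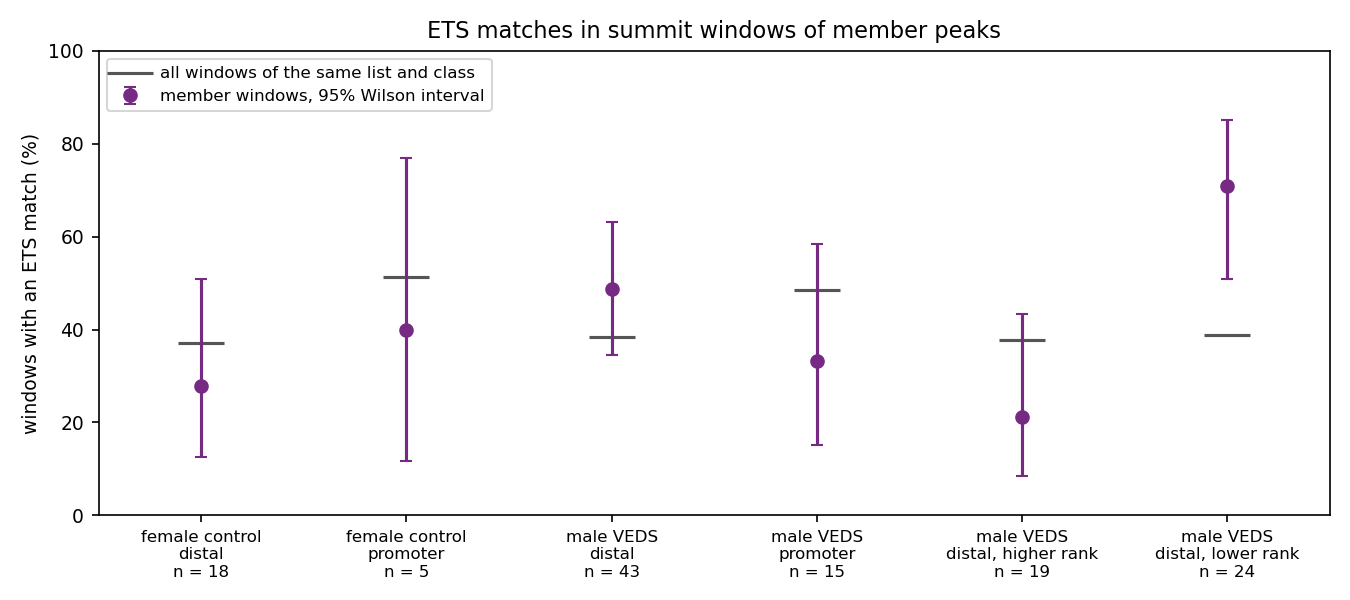
Percent of 300-bp summit windows with at least 1 ETS match (y axis) in member peaks, by list, class and rank (x axis), with 95% Wilson intervals as bars. Horizontal marks give the share over all windows of the same list, class and rank. The lower-ranked distal windows of the male VEDS list, 17 of 24, have an interval above their mark, and the other 5 intervals include theirs. The split by rank was made after values were seen, and windows of 1 locus are not replicates, so the intervals are no test. Without *Erg* and *Pecam1* the lower-ranked distal count was 5 of 8, beside 38.8%.

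Other motifs gave small counts. The FOX:ETS composite (AACAGGAA), known from endothelial enhancers, was in 0 of 23 and 0 of 58 windows, beside 2.49% and 2.62% of all windows, and 0 of 58 leaves shares of up to 6.21% within its interval. SOX matches (ACAAAG or ACAATG) were in 6 of 23 (26.1%, 12.5 to 46.5%) beside 22.8%, and in 21 of 58 (36.2%, 25.1 to 49.1%) beside 25.7%, and 10 of the 21 lay in the *Erg* locus. AP-1 matches were in 5 of 23 (21.7%, 9.66 to 41.9%) beside 11.6%, and in 6 of 58 (10.3%, 4.83 to 20.8%) beside 11.6%. GATA matches were in 3 of 23 (13.0%) and 7 of 58 (12.1%), and MEF2 matches in 1 of 23 and 2 of 58, beside 5.56% and 5.79%. All these intervals contained the share over all windows. Most member windows were distal, and these motifs were more frequent in distal windows of both lists. In distal windows SOX matches were in 5 of 18 beside 29.7%, and in 17 of 43 beside 30.4%. AP-1 matches there were in 5 of 18 beside 18.7%, and in 5 of 43 beside 15.5%. GATA matches were in 3 of 18 and 5 of 43 distal windows, beside 12.1% in both lists.

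Smooth muscle genes had more promoter peaks than the endothelial identity genes in both long lists. All 10 genes of a smooth muscle list (contractile proteins and their regulators) had a promoter peak in the male VEDS list and 9 of 10 in the female control list, and their pooled density was 10.3 and 4.94 peaks per 100 kb. At equal list length the smooth muscle count was 9 of 10 in both, and the density was 5.66 in the male VEDS list against 1.95 for the endothelial identity genes. Of a further 25 endothelial genes, 12 had a promoter peak in the male VEDS list, 5 in the female control list and 0 in both short lists. The shares over all protein-coding genes were 58.5% in the male VEDS list and 47.4% in the female control list. The 13 with none in either long list were *Egfl7*, *Emcn*, *Adgrl4*, *Tal1*, *Plvap*, *Fli1*, *Robo4*, *Myct1*, *Ptprb*, *Ramp2*, *Icam2*, *Cldn5* and *Bmx*. Among them are *Fli1*, an ETS factor, and *Cldn5*, a tight junction protein, whereas *Ets1*, another ETS factor, had one in both long lists. Over all protein-coding genes, 9052 (41.3%) had no promoter peak in any list.

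Promoter peaks of the remaining lists, in the female control and male VEDS lists in that order, were 1 and 1 of 6 lymphatic endothelial genes, 4 and 4 of 10 fibroblast genes, 3 and 6 of 10 adipocyte genes, 0 and 1 of 10 immune genes, 1 and 3 of 6 neuronal genes and 1 and 1 of 6 hepatocyte genes. Adipocytes surround the vessel wall, and hepatocytes are not a cell type of the aorta. Beside them stand 47.4% and 58.5% of all protein-coding genes. In the 2 short lists each of these lists, and the smooth muscle list, counted 0, beside 1.56% (male control) and 1.49% (female VEDS) of all genes.

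**Figure D5:**
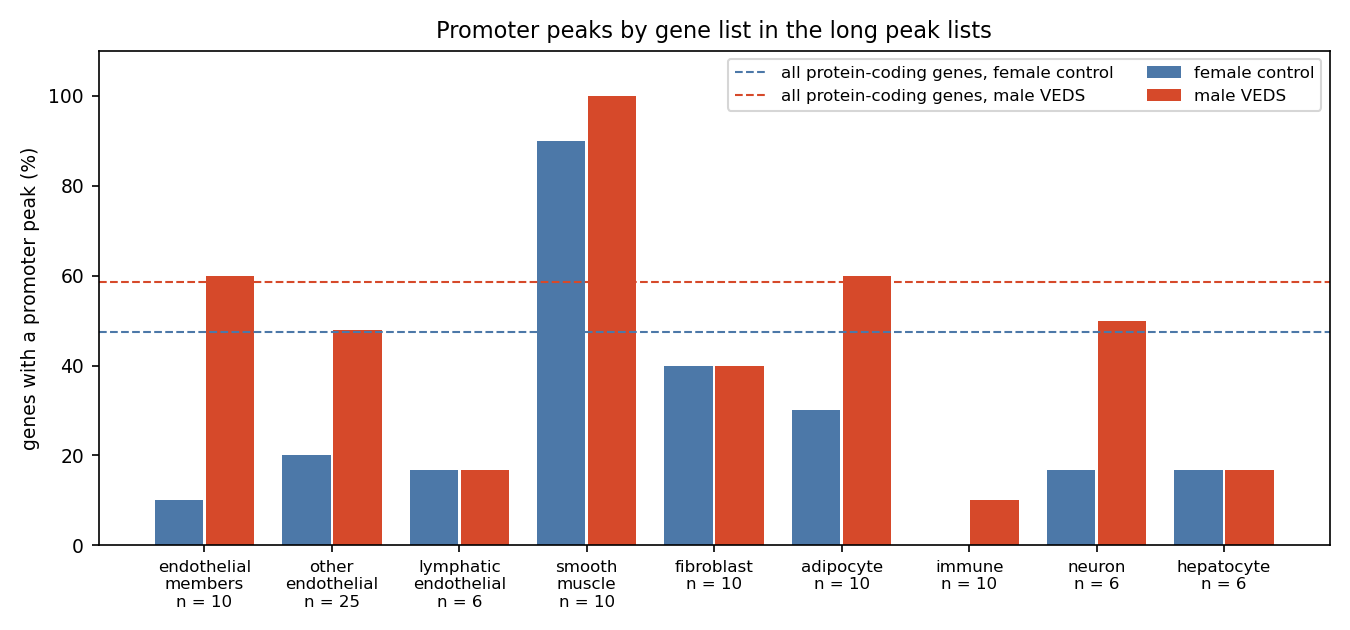
Percent of the genes of each list with a promoter peak (y axis) in the female control and male VEDS lists, by gene list (x axis, n genes below each name). Dashed lines are the shares over all protein-coding genes, 47.4% and 58.5%. Smooth muscle genes reach 90% and 100%, and the 10 endothelial identity genes 10% and 60%.

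The pattern of promoter peaks over the 4 libraries was a common one. Peaks in the male VEDS list alone were the pattern of *Vwf*, *Tek*, *Kdr*, *Flt1* and *Erg* and of 2461 protein-coding genes in all (11.2%). *Pecam1* shared its pattern, peaks in both long lists and neither short one, with the rest of 9782 genes (44.6%). *Cdh5*, *Nos3*, *Sox17* and *Sox18* had no promoter peak in any list, as did 9052 genes (41.3%).

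Combined by genotype, the members had 24 merged peaks in the controls and 58 in the VEDS libraries, and promoter peaks at 1 and 6 genes. Each of these counts was set by 1 library. Without the female control library 3 merged peaks and 0 genes remained in the controls, and without the male VEDS library 1 merged peak and 0 genes remained in VEDS. With the male VEDS list cut to 21176 peaks, the member peaks numbered 23 in the female control list and 25 in the male VEDS list.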

How the data were processed

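ATAC-seq peaks of 4 libraries of aortic nuclei were analyzed, 2 control and 2 VEDS. Reads were aligned by the authors to mm10, duplicates were removed with the cell barcodes taken into account, cut sites were shifted for Tn5, and MACS2 narrow peaks outside blacklisted regions were listed per library. The aligner was not given in the sources used here. The deposited lists give, for each peak, a score, the fold enrichment as a ratio over local background, −log10 p and −log10 q, all as the authors computed them. The lowest −log10 q was 1.303 to 1.321. Library totals were not used.

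Groups were taken from the genotype in the sample annotations. Genes, transcripts and exons came from GENCODE vM21 on GRCm38. The reference transcript of a gene was its protein-coding transcript with the most exonic bases. Overlap needed at least 1 bp. The pileup was the whole number that gave the deposited fold enrichment (pseudocount 1) within 0.2% and the −log10 p under a Poisson distribution, found for 99.1% to 99.9% of peaks per list. It was tested on 500 peaks simulated with the same formula and found in 100%, which checks the calculation alone. Intervals and pileups cover counting error only. Motifs were searched in 300-bp summit windows, MEF2 by a fixed consensus. A match of one motif can overlap a match of another.

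The 10 genes, the gene lists and the alternatives were chosen with earlier results of these data known. All 10 genes were named, and neighbors only where a peak lay within 3 kb of their TSS. Other endothelial genes were named only where they had no promoter peak in either long list, except *Ets1*. Alternatives were −log10 q of at least 5 or 10, equal list sizes, masked peaks left out, other flanks, promoter definitions, overlaps, windows and motifs, and each library left out. Python 3.11.15, numpy 2.4.6, pandas 2.3.3, scipy 1.17.1, pysam 0.24.0 and matplotlib 3.10.9 were used.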

Additional observations from a re-analysis of the deposited data

Results flagged for a closer look

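The difference between VEDS and control had opposite signs in the 2 sexes, and this was not tested, since each sex has 1 library per genotype. Peaks in the member loci numbered 1 in the female VEDS library against 23 in the female control, a difference of -22, and 58 in the male VEDS against 3 in the male control, a difference of 55. Members with a promoter peak differed by -1 in females (0 against 1) and by 6 in males (6 against 0). List length moved with both: 504 against 21176 peaks in females and 41444 against 1236 in males. Its part in the differences was not tested. At the length of the shortest list, member peaks numbered 0 in the female control, 1 in the male control, 1 in the female VEDS and 0 in the male VEDS list.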

How the results depend on the processing

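No paired analysis was possible because the labels number no replicates and no result comes from a test. The numbers used here only name libraries, and differences within a sex are given as values. Of 154 values recomputed, 100 stayed within 1.5 times the main count or inside the main interval of a share, and 54 did not. Flanks of 10 kb, 50 kb or none, leaving out neighbor promoters, leaving out peaks over 50% masked, measuring from the summit, and summits within 150 bp moved none.

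At −log10 q of at least 5, members with a promoter peak were 0 in the female control list and in the controls, member peaks 14, 1 and 0 (female control, male control, female VEDS), merged control peaks 14, the female control shared share 100% and its ETS share 14.3%. At −log10 q of at least 10, promoter counts were 0 (female control and controls) and 3 (male VEDS and VEDS), member peaks 6, 0, 0 and 28 (female control, male control, female VEDS, male VEDS), merged peaks 6 and 28 (control, VEDS), shared shares 100% (female control) and 21.4% (male VEDS), and the male VEDS ETS share 25%. At the length of the shortest list, promoter counts were 0 in both long lists and both genotypes, member peaks 0, 1 and 0 (female control, male control, male VEDS), and merged peaks 1 and 1. With the male VEDS list cut to the female control length, it held 3 members with a promoter peak and 25 peaks (also the VEDS counts), a shared share of 76.0% and an ETS share of 20%. The construction of these settings, fewer peaks, lowers the counts. The cause of the lower ETS share was not tested.

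The female control promoter count was 0 within 1 kb and with protein-coding starts only. With overlap of 50% of both peaks its shared share was 69.6%. ETS shares in the female control and male VEDS lists were 13.0% and 20.7% in 100-bp windows, 4.35% and 1.72% with the strict match and 100% and 98.3% with the core. Leaving out each library in turn gave 3 to 23 merged control peaks, 1 to 58 merged VEDS peaks, and promoter counts of 0 to 1 and 0 to 6. Without the *Erg* and *Pecam1* loci, chosen after seeing the data, member peaks were 7, 1, 0 and 25 (female control, male control, female VEDS, male VEDS) and the female control ETS share 14.3%. The median pileups of 6 (female VEDS) and 7 (male control) at the summit limit what the short lists can show.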
